A study of Mus musculus with 2 samples.

Results

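The 10 genes described here encode the core of the mammalian circadian clock and its best known outputs: Arntl, Clock, Per1, Per2, Per3, Cry1, Cry2, Nr1d1, Dbp and Tef. They were chosen by name and not by a rule on their values, though with earlier results of these data known. Out of 43346 annotated genes, all 10 were matched by gene identifier in both libraries, with 37 annotated transcripts. Polyadenylated RNA came from frontal cortex of C57BL/6J mice, at 8 weeks of age, with no treatment named in the labels. The submitters sequenced it as 2 stranded paired-end libraries, biological replicates 2 and 1 of a single group. The labels describe littermates of both sexes and a pooled sex for each sample, and both samples name the same donor record, so it is not stated whether the replicates came from separate animals. There is no treatment, genotype or time series, and the results are levels, their order, their transcripts and the spread between the libraries.

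In mouse cells the proteins BMAL1 (from Arntl) and CLOCK pair up and activate genes through a short promoter element called the E-box. Their targets include the period and cryptochrome genes, whose proteins return to the nucleus and repress the pair, and Nr1d1, whose product REV-ERB-alpha represses Arntl. Dbp and Tef belong to the PAR bZIP family, which carries the rhythm to other genes through the D-box. This loop runs in cortical cells as well as in the suprachiasmatic nucleus, the pacemaker of the hypothalamus, and in most mouse tissues Arntl peaks when Nr1d1 and Dbp are low. The hour at which the tissue was taken, on which the rhythmic ones among these levels depend, was not found among the labels.

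The libraries held 90476207 expected counts (estimated fragments) in replicate 2 and 106084891 in replicate 1. The clock genes took 92478 of them in replicate 2, 0.106% of the counts of annotated genes, and 103826 in replicate 1, 0.102%. Against the label of pooled sexes, Xist, whose RNA coats the inactivated X, was counted 77696 times in replicate 2 but 107 times in replicate 1. The Y-linked genes Eif2s3y, Ddx3y, Kdm5d and Uty had 1 to 3 counts in replicate 2 and 1777 to 7150 in replicate 1. Each mean and SD below is therefore over libraries that differ in their sex-linked RNA, as libraries of the same animals would not. The markers of excitatory neurons were present (401 TPM of Slc17a7 in replicate 2, 447 TPM in replicate 1). Of the markers of the suprachiasmatic nucleus, Avp had 0.37 TPM in replicate 2 and 0.26 TPM in replicate 1, Six6 had 0.01 TPM in both libraries and Nms was listed at 0, while Vipr2 and Rgs16 were the 2 of 7 above 1 TPM. Markers of the olfactory bulb were also present, Doc2g reaching 161 TPM in replicate 2 and 149 TPM in replicate 1.

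Levels are in TPM, a share of all transcripts that divides a gene's fragments by its length and so allows genes to be compared. Together the clock genes held 448 TPM in replicate 2 and 451 TPM in replicate 1, and their means ran from 6.62 TPM for Cry1 to 126 TPM for Dbp. Of the 10 genes, 6 lay above the median of the 13247 protein-coding genes with a mean of at least 1 TPM. The outputs Dbp and Tef were the most abundant, followed by Nr1d1, Cry2, Per1, Per3, Arntl, Per2, Clock and Cry1. Neighbours in this order are called apart when they stand in the same order in both libraries, the mean log2 ratio exceeds its SD, and their deposited TPM intervals (of a level the files do not state) do not overlap in either library. By that rule 5 of 9 neighbouring pairs were apart, while Dbp and Tef, Per1 and Per3, Arntl and Per2, and Per2 and Clock were not. In bulk tissue a smaller share of expressing cells and less RNA per cell cannot be told apart.

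**Figure D1:**
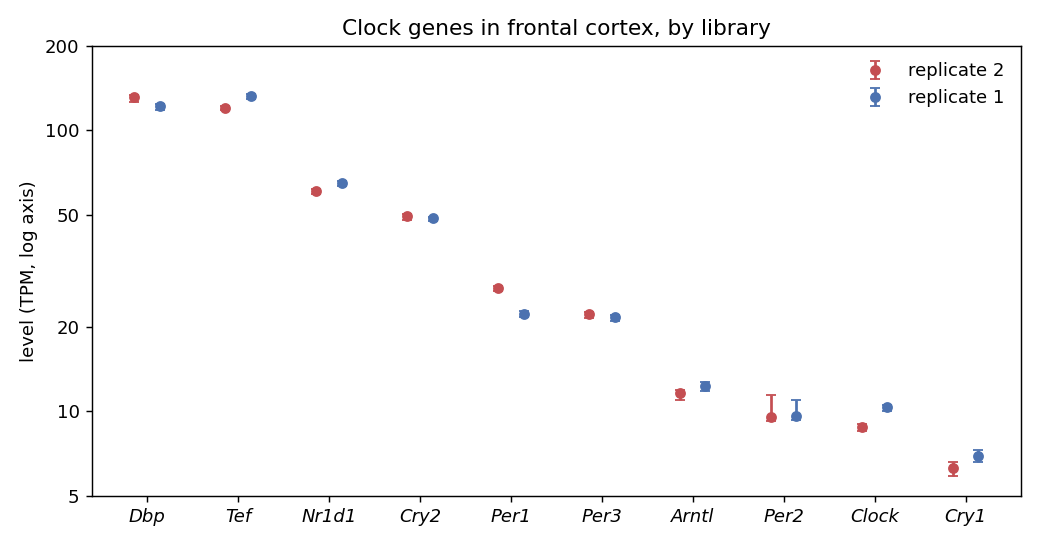
Level of each clock gene in TPM (log axis) in replicate 2 (red, left of each pair) and replicate 1 (blue), with the deposited interval as a bar. Dbp and Tef stand near 126 TPM and Cry1 at 6.62 TPM, and the upward bars of Per2 reach 11.4 TPM in replicate 2 and 11.0 TPM in replicate 1.

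The activators were among the less abundant members. Arntl (chr7:113207465-113314126, plus strand on mm10, as for all genes here), which encodes BMAL1, had 11.6 TPM in replicate 2 (interval 11.0 to 11.9) and 12.3 TPM in replicate 1 (11.8 to 12.7), a mean of 11.95 ± 0.552 TPM (SD, n = 2). Clock (chr5:76209868-76304792, minus strand), which encodes its partner, had 8.80 TPM in replicate 2 (8.47 to 8.97) and 10.3 TPM in replicate 1 (9.98 to 10.5), or 9.56 ± 1.07 TPM (SD, n = 2). Clock was below Arntl in both libraries, with a mean log2 ratio of -0.33 ± 0.09 (SD, n = 2), and their intervals did not overlap. By counts the order was the other way, since the transcript of Clock is longer at 7478 nt against 2904 nt for Arntl, and it gave 4790 counts in replicate 2 and 6201 in replicate 1 where Arntl gave 2330 (replicate 2) and 2753 (replicate 1). Npas2, which can take the place of CLOCK in forebrain neurons, had 9.61 TPM in replicate 2 and 10.9 TPM in replicate 1, and its ratio over Clock of 0.10 ± 0.03 (log2, SD, n = 2) was not called because the intervals overlapped in replicate 1. Arntl2, the paralog of Arntl, had 6.79 TPM in replicate 2 and 6.90 TPM in replicate 1.

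Of the period genes, whose products carry the repressing signal back to the nucleus, Per1 and Per3 were above Per2. Per1 (chr11:69095217-69109960, plus strand) had 27.5 TPM in replicate 2 (26.8 to 28.02) and 22.1 TPM in replicate 1 (21.6 to 22.7), or 24.8 ± 3.78 TPM (SD, n = 2). Its SD of 15.2% of the mean was the widest of the 10 genes. Per2 (chr1:91415982-91459324, minus strand) had 9.54 TPM in replicate 2 and 9.64 TPM in replicate 1, or 9.59 ± 0.0707 TPM (SD, n = 2), the narrowest at 0.737% of the mean. Its gene-level interval reached from 9.23 to 11.4 TPM in replicate 2, whereas that of Per2-201, the transcript that held all of its counts, reached from 9.17 to 9.75 TPM. The difference came with Per2-202, an annotated transcript of 231 nt with 0 counts and an upper bound of 1.84 TPM in replicate 2. Per3 (chr4:151003652-151044665, minus strand) had 22.2 TPM in replicate 2 (21.5 to 22.6) and 21.6 TPM in replicate 1 (20.9 to 22.0), or 21.9 ± 0.438 TPM (SD, n = 2). Per1 took 46.4% of the period TPM in replicate 2 and 41.5% in replicate 1, Per3 took 37.5% (replicate 2) and 40.5% (replicate 1), and Per2 took 16.1% (replicate 2) and 18.1% (replicate 1). On the log2 scale Per1 stood 1.36 ± 0.23 and Per3 1.19 ± 0.04 above Per2 (SD, n = 2), and both pairs were called, but Per1 over Per3, at 0.17 ± 0.19, was not.

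By the deposited split between transcripts, which is an estimate, the place of Per3 rested on a transcript that is not annotated as coding. Per3-204, a processed transcript of 3663 nt, took 62.5% of the TPM of Per3 in replicate 2 and 54.1% in replicate 1. The protein-coding Per3-201, of 5999 nt, took 29.7% in replicate 2 and 38.3% in replicate 1. It had 6.58 TPM in replicate 2 (6.11 to 6.92) and 8.27 TPM in replicate 1 (7.73 to 8.57), which do not overlap, while Per3-204 ran the other way with 13.9 TPM in replicate 2 (13.1 to 14.5) and 11.7 TPM in replicate 1 (11.0 to 12.3). Measured by coding transcripts alone, a reading added after the values were seen, Per3 lay below Per2, at a log2 ratio of -0.38 ± 0.22 (SD, n = 2), below Per1, with Per1 over Per3 at 1.74 ± 0.45, and below Arntl, at -0.70 ± 0.17, where the gene totals put it 0.87 ± 0.10 above Arntl. Per3 lies inside Camta1 on the same strand, and the pair shares 0 exon bases.

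The windows of Per1 and Per3 shown here differ in the promoter elements that they spell. Each window runs from 250 bases before an annotated start to 50 after it, taken from RefSeq on GRCm38.p6 and written 5′ to 3′ on the gene's strand. Capitals mark the letters searched on both strands, and positions count from the start to the first marked base. In the windows of Per1 and Per3 these are an E-box (CACGTG) at -166 and a ROR core (AGGTCA, read by ROR and REV-ERB proteins) at -137 for Per1, and D-boxes (TTATGTAA or TTACGTAA) at -205 and -158 for Per3. The Per1 window (chr11:69098699-69098998, plus strand) belongs to the start of Per1-201, which took 70.3% of the gene's TPM in replicate 2 and 66.9% in replicate 1. Start 2 of Per1 spells none of the letters searched. The Per3 window (chr4:151044616-151044915, minus strand) belongs to Per3-201, which took 29.7% of the gene's TPM in replicate 2 and 38.3% in replicate 1. Per3-204, which took more in both libraries, begins further downstream and has no window at its start.
Per1 start 1: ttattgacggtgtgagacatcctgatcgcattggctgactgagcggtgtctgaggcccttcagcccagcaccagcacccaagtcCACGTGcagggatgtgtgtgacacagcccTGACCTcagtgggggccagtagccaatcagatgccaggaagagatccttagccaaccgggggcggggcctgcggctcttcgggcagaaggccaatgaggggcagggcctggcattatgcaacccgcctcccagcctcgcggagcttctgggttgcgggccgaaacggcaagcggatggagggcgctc
Per3 start 1: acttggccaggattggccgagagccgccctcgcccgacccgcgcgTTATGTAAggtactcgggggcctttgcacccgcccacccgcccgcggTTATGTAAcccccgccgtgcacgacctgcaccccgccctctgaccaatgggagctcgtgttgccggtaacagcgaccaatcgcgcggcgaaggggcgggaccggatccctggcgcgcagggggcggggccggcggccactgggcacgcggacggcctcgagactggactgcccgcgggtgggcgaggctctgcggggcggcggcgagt

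The cryptochromes, which repress the activators together with the period proteins, were far apart. Cry2 (chr2:92403646-92434043, minus strand) had 49.4 TPM in replicate 2 (48.2 to 50.2) and 48.7 TPM in replicate 1 (47.6 to 49.3), or 49.1 ± 0.502 TPM (SD, n = 2). Cry1 (chr10:85131700-85185064, minus strand), at the foot of the order, had 6.29 TPM in replicate 2 (5.90 to 6.57) and 6.95 TPM in replicate 1 (6.58 to 7.25), or 6.62 ± 0.467 TPM (SD, n = 2). Cry2 thus took 88.7% of the cryptochrome TPM in replicate 2 and 87.5% in replicate 1. The log2 ratio of Cry2 over Cry1 was 2.89 ± 0.12 (SD, n = 2), and by counts, with no division by length, it was 3.26. Most of Cry2 lay on the coding transcript Cry2-201, with 92.7% of the gene's TPM in replicate 2 and 92.1% in replicate 1.

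The promoter windows of this pair of paralogs are shown because their levels differ most within a family of members. Cry1 (chr10:85185005-85185304, minus strand) spells an E-prime box (CACGTT, a variant of the E-box) at -79 and an E-box at -60, and Cry2 (chr2:92434020-92434319, minus strand) spells an E-prime box at -166. Capitals mark those letters.
Cry1 start 1: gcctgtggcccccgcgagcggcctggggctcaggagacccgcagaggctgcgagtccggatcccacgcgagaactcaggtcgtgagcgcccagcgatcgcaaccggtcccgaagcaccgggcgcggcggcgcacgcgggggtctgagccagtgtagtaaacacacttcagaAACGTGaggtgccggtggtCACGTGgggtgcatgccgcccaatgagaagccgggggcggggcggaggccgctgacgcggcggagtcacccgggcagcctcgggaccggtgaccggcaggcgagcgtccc
Cry2 start 1: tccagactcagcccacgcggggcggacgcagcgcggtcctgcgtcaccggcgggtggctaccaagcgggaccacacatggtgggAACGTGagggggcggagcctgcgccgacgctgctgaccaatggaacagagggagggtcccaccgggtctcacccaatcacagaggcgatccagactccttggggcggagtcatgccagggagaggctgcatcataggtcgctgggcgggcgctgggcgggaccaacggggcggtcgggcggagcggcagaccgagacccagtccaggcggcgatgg

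Nr1d1 (chr11:98767932-98775333, minus strand), the nuclear receptor that represses Arntl, had 61.0 TPM in replicate 2 (59.3 to 61.7) and 65.1 TPM in replicate 1 (63.5 to 65.8), or 63.1 ± 2.91 TPM (SD, n = 2). It stood above its paralog Nr1d2, which had 27.3 TPM in replicate 2 and 29.4 TPM in replicate 1, at a log2 ratio of Nr1d2 over Nr1d1 of -1.15 ± 0.01 (SD, n = 2). Over Arntl the log2 ratio of Nr1d1 was 2.40 in both libraries. The coding transcript Nr1d1-201 took 97.2% of the TPM in replicate 2 and 95.9% in replicate 1. Nr1d1 shares 263 exon bases with Thra on the opposite strand, a thyroid hormone receptor gene with 379 TPM in replicate 2 and 441 TPM in replicate 1. Whether the authors' counting used the strand is not given in the sources used here. The deposited posterior SD of the counts was 0 for Nr1d1 and for the other 9 members in both libraries. Its window (chr11:98775328-98775627, minus strand) spells an E-prime box at -28, in capitals, the match nearest to a start among the members.
Nr1d1 start 1: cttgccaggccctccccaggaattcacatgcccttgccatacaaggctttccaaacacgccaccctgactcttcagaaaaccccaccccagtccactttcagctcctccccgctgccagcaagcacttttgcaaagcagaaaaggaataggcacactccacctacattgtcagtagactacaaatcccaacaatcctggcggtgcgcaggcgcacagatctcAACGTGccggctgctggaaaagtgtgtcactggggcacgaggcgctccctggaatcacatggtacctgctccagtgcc

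Receptors that act against REV-ERB at the same elements were lower. Rora had 8.92 TPM in replicate 2 and 8.03 TPM in replicate 1, and Rorb had 5.82 TPM (replicate 2) and 5.47 TPM (replicate 1).

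The output factors Dbp and Tef stood at the head of the order with means that could not be told apart. Dbp (chr7:45705088-45710203, plus strand) had 131 TPM in replicate 2 (127 to 134) and 122 TPM in replicate 1 (118 to 124), or 126 ± 6.61 TPM (SD, n = 2). Tef (chr15:81802421-81826863, plus strand) had 120 TPM in replicate 2 (118 to 123) and 132 TPM in replicate 1 (129 to 135), or 126 ± 8.41 TPM (SD, n = 2). Their order turned between the libraries, with a log2 ratio of Dbp over Tef of 0.12 in replicate 2 and -0.12 in replicate 1, and in each library the intervals did not overlap. Hlf, the remaining member of the PAR bZIP family, had 46.3 TPM in replicate 2 and 39.6 TPM in replicate 1, below Dbp by a log2 ratio of 1.56 ± 0.08 and below Tef by 1.56 ± 0.26 (SD, n = 2). Nfil3, which binds the same D-boxes as a repressor, had 5.37 TPM in replicate 2 and 3.89 TPM in replicate 1, and Dbp stood 4.79 ± 0.25 above it on the log2 scale (SD, n = 2). Dbp over Arntl, the contrast of an output with the activator, was 3.50 in replicate 2 and 3.30 in replicate 1 on the same scale.

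Part of the level of Dbp lay on transcripts whose type is not known here. Its coding transcript Dbp-201 took 45.6% of the TPM in replicate 2 and 46.5% in replicate 1, and the remainder lay on 4 deposited transcripts that are not in GENCODE M21, the release used here for names and types. Of these, ENSMUST00000107741.1, of 801 nt, had 51.2 TPM in replicate 2 (47.0 to 54.3) and 36.4 TPM in replicate 1 (32.8 to 39.6), and ENSMUST00000155439.1, of 815 nt, had 5.64 TPM in replicate 2 (3.49 to 7.66) and 14.9 TPM in replicate 1 (12.5 to 17.0). These 2 short transcripts differed in opposite directions between the libraries, while Dbp-201 had 59.8 TPM in replicate 2 and 56.6 TPM in replicate 1 with overlapping intervals. These 4 may include coding transcripts, so a level from Dbp-201 alone is a lower limit for coding Dbp. By transcripts annotated as coding in GENCODE M21, Dbp had 58.2 ± 2.26 TPM and Tef 90.9 ± 3.34 TPM (SD, n = 2), and the log2 ratio of Dbp over Tef was -0.64 ± 0.11, so Tef was above Dbp in both libraries by this reading, which leaves those 4 out. The log2 ratio of Dbp over Nr1d1 was then -0.06 ± 0.11, smaller than its SD. By the same reading Dbp over Arntl was 2.37 in replicate 2 and 2.20 in replicate 1. Dbp shares 539 exon bases with Sphk2 on the opposite strand, itself at 11.5 TPM (replicate 2) and 11.6 TPM (replicate 1).

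Tef was spread over more transcripts than any other member, 6 of 10 with a mean of at least 1 TPM. The coding Tef-202 had 52.9 TPM in replicate 2 and 53.4 TPM in replicate 1, and the coding Tef-201, which begins at a start further downstream, had 34.4 TPM in replicate 2 (32.5 to 35.7) and 38.4 TPM in replicate 1 (36.3 to 39.6). Transcripts annotated as retained introns held the next share, Tef-207 having 21.8 TPM in replicate 2 and 24.7 TPM in replicate 1, and Tef-203 having 7.65 TPM in replicate 2 (7.12 to 8.04) and 11.1 TPM in replicate 1 (10.5 to 11.6). RefSeq places start 1 of Tef 252 bases downstream of the annotated 5′ end of Tef-202, with an E-box at -127. Start 2, the 5′ end of Tef-201 (chr15:81811164-81811463, plus strand), has an E-box at -138, in capitals, and its window is shown because no annotated exon of Tef lies before the start within it.
Tef start 2: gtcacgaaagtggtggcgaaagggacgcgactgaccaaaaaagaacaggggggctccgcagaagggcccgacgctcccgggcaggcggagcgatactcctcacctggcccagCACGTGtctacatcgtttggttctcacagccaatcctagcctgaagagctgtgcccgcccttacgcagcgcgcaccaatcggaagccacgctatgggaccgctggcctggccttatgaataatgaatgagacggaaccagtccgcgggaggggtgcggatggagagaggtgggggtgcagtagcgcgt

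**Figure D2:**
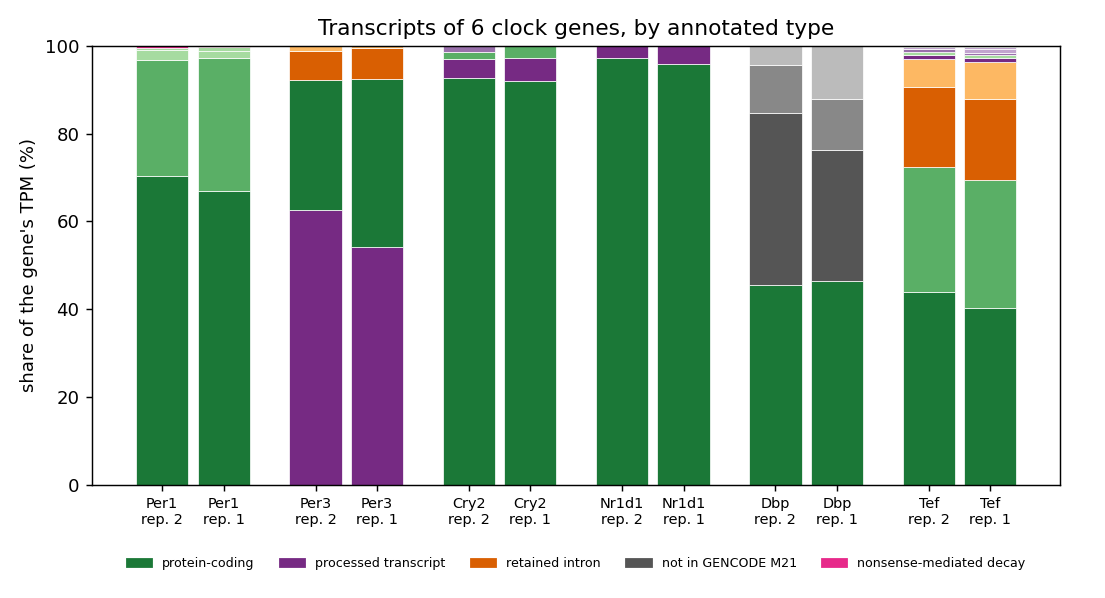
Share (%) of each transcript in the TPM of its gene, for the 6 members with at least 2 transcripts at 1 TPM, replicate 2 left of replicate 1, coloured by annotated type (shades separate transcripts of the same type). Processed transcripts lead in Per3 with 62.5% in replicate 2 and 54.1% in replicate 1, and transcripts outside GENCODE M21 hold 54.4% of the TPM of Dbp in replicate 2 and 53.5% in replicate 1.

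Over all members, 24 of 37 transcripts had a mean of at least 1 TPM. The intervals of the libraries did not overlap for 11 of these 24, against 33.6% of all 31366 transcripts at that level. Of the 11, 3 were higher and 8 lower in replicate 2. These intervals are in TPM, and the median log2 ratio of all genes on the TPM scale was -0.12 (replicate 2 over replicate 1). The share of all transcripts was not split by direction. Arntl, Clock and Cry1 had 1 transcript each in the deposited annotation, so their gene and transcript values are the same.

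Promoter windows were found for 9 of the 10 genes, 14 windows in all. The E-box letters were in 4 of the 14 windows (of Per1, Cry1 and Tef) and in 7.15% of all 32851 windows of the same length. E-prime boxes were in 3 (Cry1, Cry2 and Nr1d1) against 4.68% of all windows, and D-boxes in 1 (Per3) against 1.06%. The ROR core was in 3 (Arntl, Clock and Per1) against 16.3%, and the cyclic AMP response element (TGACGTCA) in 0 against 1.79%. The Dbp window held none of these letters. Its start lies 159 bases downstream of the annotated 5′ end of Dbp-201, so bases of the window before the start lie within the annotated gene. GC content was above the median of all windows, 52.7%, in 13 of the 14. Windows of the same gene can overlap, as those of Arntl do, and a match of letters is a description and not a binding site.

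**Figure D3:**
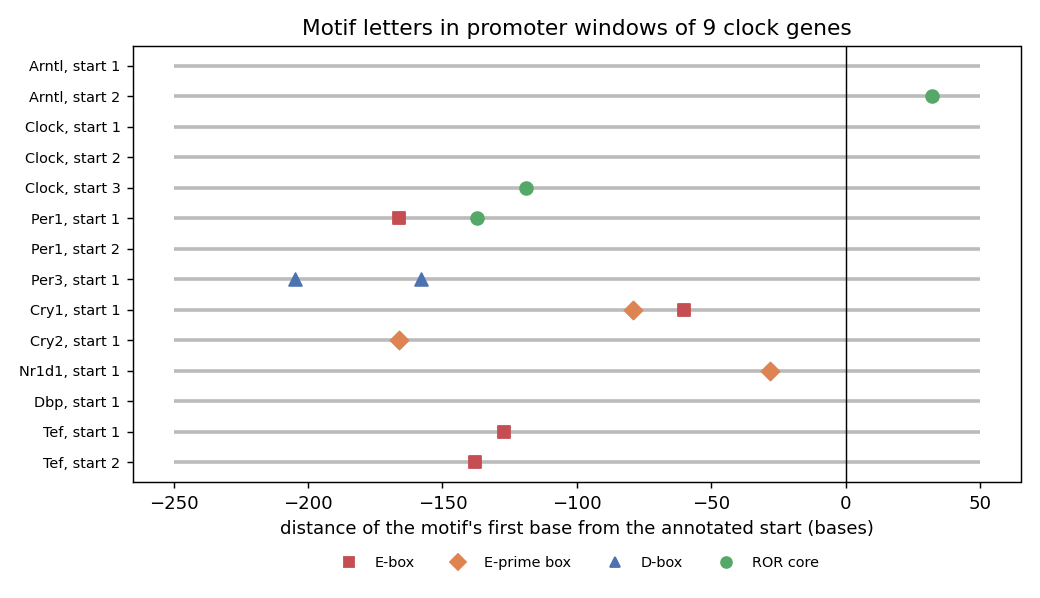
Motif letters in the 14 promoter windows of 9 clock genes, by distance in bases of the motif's first base from the annotated start (vertical line at 0). E-boxes, squares, lie at -60 to -166 in windows of Per1, Cry1 and Tef, and both D-boxes, triangles, lie in the window of Per3.

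Of the 19 pairs compared within the clock, 15 were called by the rule used for neighbours. Besides those above, the period genes were above Arntl in the case of Per1, by 1.05 ± 0.29, and Per3, by 0.87 ± 0.10, but Per2 over Arntl, at -0.32 ± 0.06, was not called (log2, SD, n = 2). The intervals of that pair overlapped in replicate 2, where the gene interval of Per2 reached 11.4 TPM and that of Arntl began at 11.0 TPM. The interval of Per2-201, which held all counts of Per2, ended at 9.75 TPM in replicate 2. Among partners of the members, Bhlhe40, a repressor that competes for E-boxes, was 1.34 ± 0.07 above its paralog Bhlhe41, Rorb over Rora was -0.58 ± 0.04, and Csnk1d over Csnk1e, the kinases that mark the period proteins for degradation, was -0.86 ± 0.02.

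**Figure D4:**
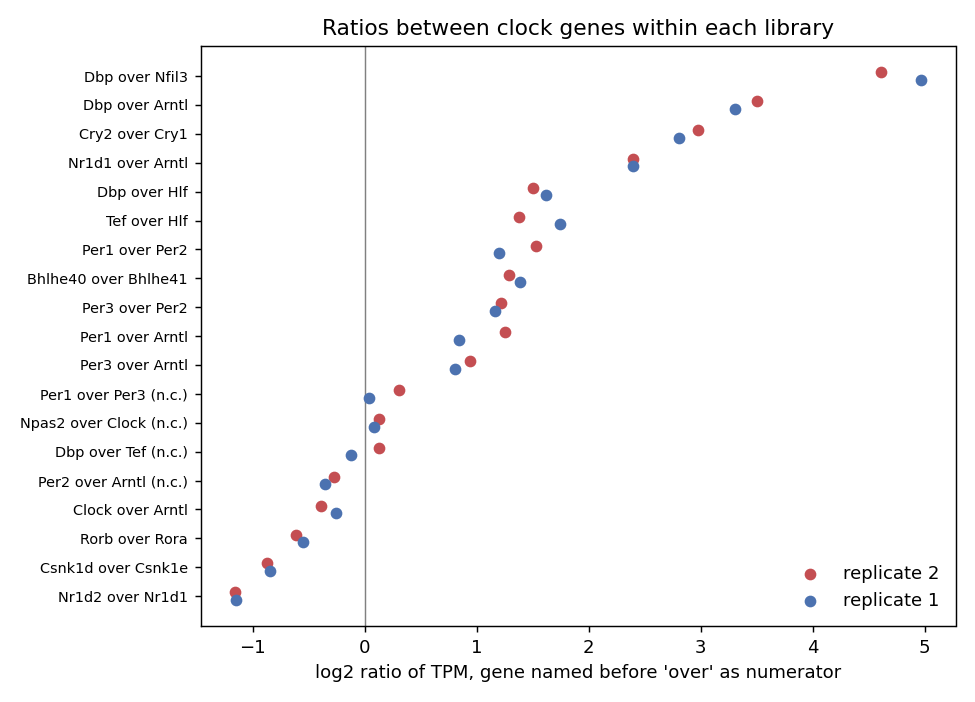
Log2 ratio of TPM within replicate 2 (red, upper point) and replicate 1 (blue) for 19 pairs of clock genes, with n.c. beside the 4 pairs not called apart. Dbp over Nfil3 lies furthest right, at 4.61 in replicate 2 and 4.97 in replicate 1, and Dbp over Tef falls on either side of 0.

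Between the libraries Per1 differed most among the clock genes. The difference is given as the log2 ratio of replicate 2 over replicate 1 on counts scaled by TMM (trimmed mean of M-values, which sets most genes at no difference), with a counting interval of 95%. Without replication within each side it has no test. Per1 had 8529 counts in replicate 2 and 7515 in replicate 1, a log2 ratio of 0.46 (0.42 to 0.51), higher than in 97.3% of all genes. It was the only member at or beyond 0.25 in the upward direction, 1 of 10 against 8.81% of all 14599 genes with a mean of at least 1 TPM, and no member was at or below -0.25, against 9.04%. The upward share of members was thus near that of all genes and the downward share below it, and with 10 members a single gene changes either share.

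The other members lay closer to 0. Over all genes the median size of the ratio, whatever its sign, was 0.10. Dbp had a log2 ratio of 0.22 (0.18 to 0.25), Cry2 0.15 (0.12 to 0.18), Per2 0.12 (0.06 to 0.18) and Per3 0.11 (0.06 to 0.15). Nr1d1, at 0.05 (0.02 to 0.09), and Tef (0.02 to 0.06) and Arntl (-0.04 to 0.12), both at 0.04, were nearer still. Cry1, at -0.01 (-0.12 to 0.10), and Clock, at -0.09 (-0.15 to -0.04), were the members lower in replicate 2. By this scaling 8 of 10 were higher in replicate 2 with a median of 0.08, against 49.5% of all genes with a median of -0.002, but on the TPM scale (log2 of TPM + 1), where the median of all genes was -0.12, 4 of 10 were higher and Arntl, Per2, Nr1d1 and Tef turned negative. Per1 was 0.30 on the TPM scale. Counted by coding transcripts, Per3 turned to -0.19. The deposited TPM intervals of the libraries did not overlap for 6 of 10 members (Clock, Per1, Cry1, Nr1d1, Dbp and Tef), against 48.7% of all genes.

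By transcript, the difference in Per1 was seen in Per1-201, which had 19.3 TPM in replicate 2 (18.2 to 19.8) and 14.8 TPM in replicate 1 (13.8 to 15.2). Per1-202, which begins further upstream, had 7.30 TPM in replicate 2 (6.79 to 7.72) and 6.72 TPM in replicate 1 (6.22 to 7.09), and these overlap.

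Per1 and Per2 are known as inducible, and genes induced by neuronal activity and genes induced by glucocorticoids were therefore read beside them. These lists were chosen with earlier results of these data known. Of all genes, 49.5% were higher in replicate 2 and 8.81% were at or above 0.25. All 12 activity-induced genes were at or above 0.25, with a median log2 ratio of 1.10 and a range from 0.62 (Dusp1) to 1.91 (Fosb). Their summed level was 490 TPM in replicate 2 and 250 TPM in replicate 1. The most abundant were Egr1, with 95.5 TPM in replicate 2 and 58.2 TPM in replicate 1, Arc, with 107 TPM (replicate 2) and 46.3 TPM (replicate 1), and Nr4a1, with 66.4 TPM (replicate 2) and 33.4 TPM (replicate 1). Of 8 glucocorticoid-induced genes, 6 were higher in replicate 2 and 4 were at or above 0.25, with a median of 0.21 and a range from -0.17 (Fkbp5) to 0.80 (Mt1). Mt1 had 740 TPM in replicate 2 and 456 TPM in replicate 1, Mt2 had 193 TPM (replicate 2) and 159 TPM (replicate 1), and Tsc22d3 had 45.6 TPM (replicate 2) and 35.4 TPM (replicate 1). Beside these, Per1 was at 0.46 and Per2 at 0.12, Per2 turning to -0.01 on the TPM scale, where the median of all genes was -0.12.

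Cell type markers differed between the libraries as well, where 49.5% of all genes were higher in replicate 2. All 5 oligodendrocyte markers were higher in replicate 2 (median log2 ratio 0.45, summed 2221 TPM in replicate 2 and 1802 TPM in replicate 1), and so were all 5 markers of red blood cells (0.46, summed 666 TPM in replicate 2 and 515 TPM in replicate 1). None of 6 microglial markers was higher (-0.38, summed 145 TPM in replicate 2 and 209 TPM in replicate 1), nor any of 4 mural markers (-0.48, summed 137 TPM in replicate 2 and 175 TPM in replicate 1). Other marker lists were mixed. Higher in replicate 2 were 3 of 5 markers of excitatory neurons, 5 of 6 of GABAergic neurons and 4 of 6 of astrocytes. So were 1 of 3 markers of precursors, 2 of 4 of endothelial cells and 3 of 4 of the olfactory bulb. The part of sex, activity, stress and cell makeup in the values of Per1 and the other members was not tested, and with 1 library on each side they cannot be told apart.

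**Figure D5:**
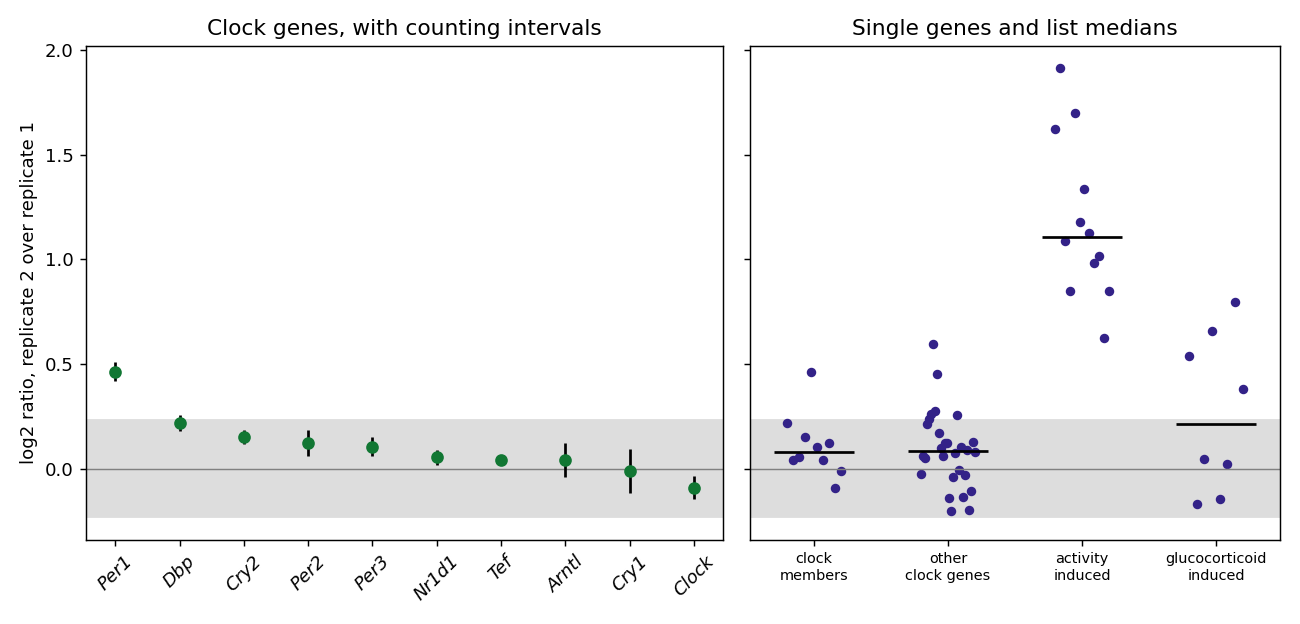
Log2 ratio of replicate 2 over replicate 1 on TMM-scaled counts: left, the clock genes with 95% counting intervals; right, single genes (points) and medians (bars) of 4 lists. The grey band spans the 10th to the 90th percentile of all genes, -0.23 to 0.23. Per1 at 0.46 and all 12 activity-induced genes lie above it. On the TPM scale, where the median of all genes was -0.12, 4 rather than 8 of the clock genes are above 0.

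The wider clock was read from a list of 29 further genes, of which 28 had a mean of at least 1 TPM. Of these 28, 19 were higher in replicate 2, 5 were at or above 0.25 and 0 at or below -0.25, with a median of 0.08, beside 49.5% of all genes higher, 8.81% at or above 0.25 and 9.04% at or below -0.25. The 5 were Nfil3 at 0.60, Bhlhe40 at 0.45, the E-box repressor Ciart at 0.28, and Hlf and Timeless, both at 0.26. On the TPM scale 1 of the 5, Nfil3, was still at or above 0.25, beside 3.92% of all genes on that scale.

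By role, the kinases were the most abundant of this list. Csnk1e had 94.5 TPM in replicate 2 and 96.1 TPM in replicate 1, and Csnk1a1 had 80.9 TPM (replicate 2) and 82.8 TPM (replicate 1). Nono, a period partner that binds RNA, had 78.5 TPM in replicate 2 and 81.2 TPM in replicate 1, and Wdr5, part of histone methyltransferase complexes, had 13.7 TPM (replicate 2) and 16.5 TPM (replicate 1). Among parts of the ubiquitin ligases that remove the repressors, Fbxw11 had 40.7 TPM in replicate 2 and 41.6 TPM in replicate 1. The outputs Por, a partner of cytochrome P450 enzymes, and Pdxk, which makes the active form of vitamin B6 and is a known target of the PAR bZIP factors, had 53.6 and 39.5 TPM in replicate 2 and 54.7 and 41.5 TPM in replicate 1. Ciart had 21.1 TPM in replicate 2 and 19.3 TPM in replicate 1, and Bhlhe40 had 29.8 TPM (replicate 2) and 27.4 TPM (replicate 1). All 4 kinases were higher in replicate 2 on TMM-scaled counts, at 0.06 to 0.12. On the TPM scale all 4 were below 0, at -0.05 to -0.02, but above the median of all genes there, -0.12. Of 4 ligase parts, 1 was higher on TMM-scaled counts.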

How the data were processed

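Polyadenylated RNA of 2 libraries of 1 group was analysed from the gene and transcript quantifications deposited for each. Per the deposited text descriptions these are on mm10 with annotation M4. The programs used for alignment and quantification: not given in the sources used here. Used were the deposited expected counts, the deposited TPM and FPKM values (over all entries, spike-ins included), the deposited isoform percent (the share of each transcript in its gene), the deposited signal bounds of TPM intervals, and other deposited columns (posterior SDs of counts and effective lengths). The split of a gene over its transcripts is an estimate of the deposited quantification. Names, types and coordinates came from GENCODE M21 on the same build, and promoter windows from RefSeq on GRCm38.p6.

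Expected counts of annotated genes were rounded to whole numbers, scaled by TMM in edgeR 4.0.16 (R 4.3.3) and compared as log2 CPM with a prior count of 2. Counting intervals are exact binomial intervals at 95%, computed without the prior count. PCR reads carry no molecular identifiers, so the intervals cover counting error only. An SD rests on 2 libraries that differ in their sex-linked RNA, so sex cannot be told apart from other differences within it. The background is the 14599 annotated genes with a mean of at least 1 TPM, and the fold threshold is a log2 ratio of 0.25. DESeq2 1.42.0 size factors, spike-in totals, library size alone, TPM, posterior means, other folds and prior counts, leaving out each library and, added after the data were seen, coding transcripts alone were the alternatives. The ratio and interval calculations were tested on simulated data.

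The members and lists were chosen with earlier results of these data known. Named are all members, all genes of the pairs, the 2 most abundant other clock genes of each role and those past the fold, the 3 most abundant and both ends of the activity and glucocorticoid lists, and sex-linked genes. No gene is named for a pattern like that of a member, since 2 libraries give no pattern. Some genes that this rule names are not reported here. Protein sequences were not used here.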

Additional observations from a re-analysis of the deposited data

How the results depend on the processing

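The summed level of the clock genes, 449 TPM on average, was 911 TPM when rescaled to nuclear protein-coding genes and 326 TPM by coding transcripts alone, a reading chosen after seeing the data. Neighbours called apart numbered 5 with both libraries and 7 to 8 when either library was left out. The rule then asks neither for equal order nor for separate intervals in the other library. Pair ratios reversed by counts not divided by length for Clock over Arntl (1.11), Dbp over Hlf (-0.14) and Csnk1d over Csnk1e (0.22) and for the neighbours Nr1d1 over Cry2 (-0.20). Of the ratios not called, Per2 over Arntl (0.75), Npas2 over Clock (-0.87), Dbp over Tef (-1.45) and Per2 over Clock (-0.36) changed sign in this way too. By coding transcripts, ratios reversed for Per3 over Per2 (-0.38) and Per3 over Arntl (-0.70). On the TPM scale, where the median of all genes was -0.12, 4 rather than 8 members were higher in replicate 2. Of the other clock genes, 1 rather than 5 was then at or above 0.25 and 2 rather than 0 at or below -0.25. The shares of all genes on that scale were 3.92% at or above 0.25 and 18.8% at or below -0.25. By spike-in total 2 of the other clock genes were at or above 0.25, beside 6.96% of all genes. At a fold of 0.5 no member (0 of 10) was past the threshold, beside 2.34% of all genes upward and 2.86% downward. By library size alone Tef and Arntl were both slightly negative, at -0.01, and 6 of 10 members were higher in replicate 2. No paired analysis was possible because there is 1 group. Protein identity was not run. Depth limits Cry1 most among the members, with 1319 counts in replicate 2 and 1614 in replicate 1.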
